A study of Homo sapiens with 24 samples.

Results

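Fatty acid metabolism was followed here through 45 genes, listed by name for their known functions with earlier results of these data known. They cover the making of fatty acids (15 genes), their activation to acyl-CoA (4), their storage as triglyceride and release from it (9), and their oxidation (17). Each name matched 1 of the 60649 features of the count table. Of the 45 genes, 44 had enough reads to be tested, and ACADL, the mitochondrial long-chain acyl-CoA dehydrogenase, was read at 0 to 6 counts per library and was not tested.

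The 24 RNA-seq libraries come from LNCaP, an established line of prostate cancer cells with a mutated androgen receptor that still responds to androgen. 2 studies of 12 libraries were made, each with 4 groups of 3 biological triplicates. Study 1 set a WDR77-peptide 3 construct (P3) against its empty vector, EV. Study 2 used siRNA, either a control (siCtrl) or one that targets WDR77 (siWDR77), the gene of a partner of the arginine methyltransferase PRMT5. After transfection the cells of all 8 groups went into androgen-deprived medium and received 5 nM R1881, a synthetic androgen, or its vehicle ethanol for 48 h. All transfections were transient, the share of cells that took up a vector or siRNA is not given in the sources used here, and vehicle means hormone-depleted cells and not cells in full medium. The groups are called below by the transfected agent and by R1881 or vehicle.

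Fatty acids are built in the cytosol from acetyl-CoA, which is carboxylated to malonyl-CoA and assembled into palmitate by fatty acid synthase with NADPH as reductant. Elongases and desaturases at the endoplasmic reticulum then lengthen and unsaturate the chains, acyl-CoA synthetases activate free fatty acids, and a chain of acyltransferases places them on glycerol for storage in lipid droplets. Oxidation runs the other way, in mitochondria after entry through the carnitine shuttle and in peroxisomes for very long and branched chains, and prostate cancer cells are known for androgen-driven lipid synthesis.

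Promoter windows, the 250 bases before and 50 after a gene's start, were found for 38 of the 45 genes in RefSeq sequences on GRCh38.p14. Of 6 short motifs searched on both strands (none holds another), the CCAAT box, CCAAT, was the most common: 12 of the 38 windows held it, against 35.7% of all 27305 promoters. It stood in 6 of 14 windows of synthesis genes and 2 of 13 of oxidation genes. Among genes that rose with R1881 in EV cells, as given further on, 8 of 21 windows held it, and among those that fell 2 of 7. The stretches below are examples from 2 genes that rose and 2 that fell with R1881, and do not stand for either set. They show a stretch with CCAAT (in capitals, as ATTGG on the other strand) beside one without. ACLY (chr17:41919023-41919272, minus strand) and SCD (chr10:100346983-100347123, plus strand) rose, while ACACB (chr12:109116337-109116586, plus strand) and GPAM (chr10:112183766-112184015, minus strand) fell. All 4 lie upstream of the RefSeq start, those of ACLY and GPAM inside introns of longer transcripts of the same gene in GENCODE 29.
ACLY: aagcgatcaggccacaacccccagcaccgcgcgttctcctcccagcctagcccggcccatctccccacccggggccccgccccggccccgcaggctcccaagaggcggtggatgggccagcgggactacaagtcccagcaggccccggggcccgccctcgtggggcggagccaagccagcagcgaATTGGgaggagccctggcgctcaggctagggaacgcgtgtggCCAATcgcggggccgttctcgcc
SCD: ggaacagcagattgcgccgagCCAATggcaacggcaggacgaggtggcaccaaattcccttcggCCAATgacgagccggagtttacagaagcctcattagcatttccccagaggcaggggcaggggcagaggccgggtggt
ACACB: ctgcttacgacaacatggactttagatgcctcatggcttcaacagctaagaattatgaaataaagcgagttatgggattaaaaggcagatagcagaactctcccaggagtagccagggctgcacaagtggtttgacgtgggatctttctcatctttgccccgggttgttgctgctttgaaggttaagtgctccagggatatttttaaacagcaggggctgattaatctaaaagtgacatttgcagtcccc
GPAM: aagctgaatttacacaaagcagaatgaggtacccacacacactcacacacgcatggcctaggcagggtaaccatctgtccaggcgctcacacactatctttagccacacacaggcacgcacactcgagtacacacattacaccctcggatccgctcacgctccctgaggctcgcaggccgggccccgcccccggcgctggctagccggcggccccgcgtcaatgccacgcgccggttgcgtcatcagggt
ACLY has its CCAAT matches 65 to 61 (as ATTGG) and 23 to 19 bases upstream of the start, and SCD 229 to 225 and 186 to 182. The 250 bases of GPAM hold none, although its full window has 1 after the start. GPAM is thus counted among the 2 of 7 genes that fell and held it.

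The sterol regulatory element core CACCCCAC stood in 0 of the 14 synthesis windows and in 2 of all 38, PNPLA2 and LIPE, against 2.72% of all promoters. AGAACA, an androgen receptor half-site, was in 0 of 38 windows (14.85% of all promoters), as was GCGCATGC, the core bound by NRF1 (3.27%). The nuclear receptor half-site AGGTCA stood in ELOVL6, ACSL5 and PNPLA2 (13.94% of all promoters), and the E-box CACGTG in ELOVL5 and PLIN2 (7.43%). These are matches of letters within the windows searched, and they locate no bound factor.

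Depth was 16665915 to 24260446 counts per library. WDR77 was at 45 and 65.7 CPM (counts scaled to library size) in siCtrl cells with vehicle and R1881 (means of 3 libraries) and at 13.2 and 14.3 in siWDR77 cells, and at 59.2, 60.8 and 56.7 in the EV groups and in P3 with vehicle, but at 94.8 in P3 with R1881. The androgen-responsive gene KLK3 went from 1326 to 6865 CPM with R1881 in EV and from 153 to 7833 in siCtrl cells. All 7 LNCaP markers were tested, and with R1881 in EV 4 rose and 3 fell. Of 8 markers of other cell types, COL1A2 and the adipocyte genes ADIPOQ and LEP had no reads, and PTPRC, PECAM1, KRT5 and TP63 stayed at or under 0.11 CPM. Only COL1A1 could be tested (6.69 to 24.4 CPM), with a log2 change with R1881 of -0.23 in EV (not called) and -1.2 in siCtrl cells (called). Its part in the results was not tested. The siCtrl vehicle library S35 had 8.40% of its counts on mitochondrially encoded genes, against 5.15 to 6.30% in the other 23. KLK3 was at 52.6 CPM in S35 and at 204 and 203 CPM in the siCtrl vehicle libraries S21 and S7. The counts of called fatty acid genes that rest on S35 are given with and without it. Means, log2 changes, ratios and shares that use siCtrl with vehicle include S35 unless stated otherwise. The deposited column names of the 3 P3 libraries with R1881 contain the word siRNA, and these were matched by sample number.

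With R1881 in EV cells, 24 of the 44 fatty acid genes rose and 11 fell. Genes are called here at an edgeR adjusted p under 0.05 over all 17772 genes tested in study 1, of which 51.4% were called, 24.9% higher and 26.4% lower. The median log2 change of the 44 was 0.51, while that of all genes was -0.04 (quartiles -0.41 and 0.33). Called rises of at least 2-fold were 14 of the 44, against 7.1% of all genes. Called falls of that size were 1 of the 44, against 7.82%. In 27 of the 44 every R1881 library lay above every vehicle library, and in 11 below, against 27.2% and 29.6% of all genes. As these are bulk RNA samples, fewer cells of a type and less RNA per cell cannot be told apart.

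**Figure D1:**
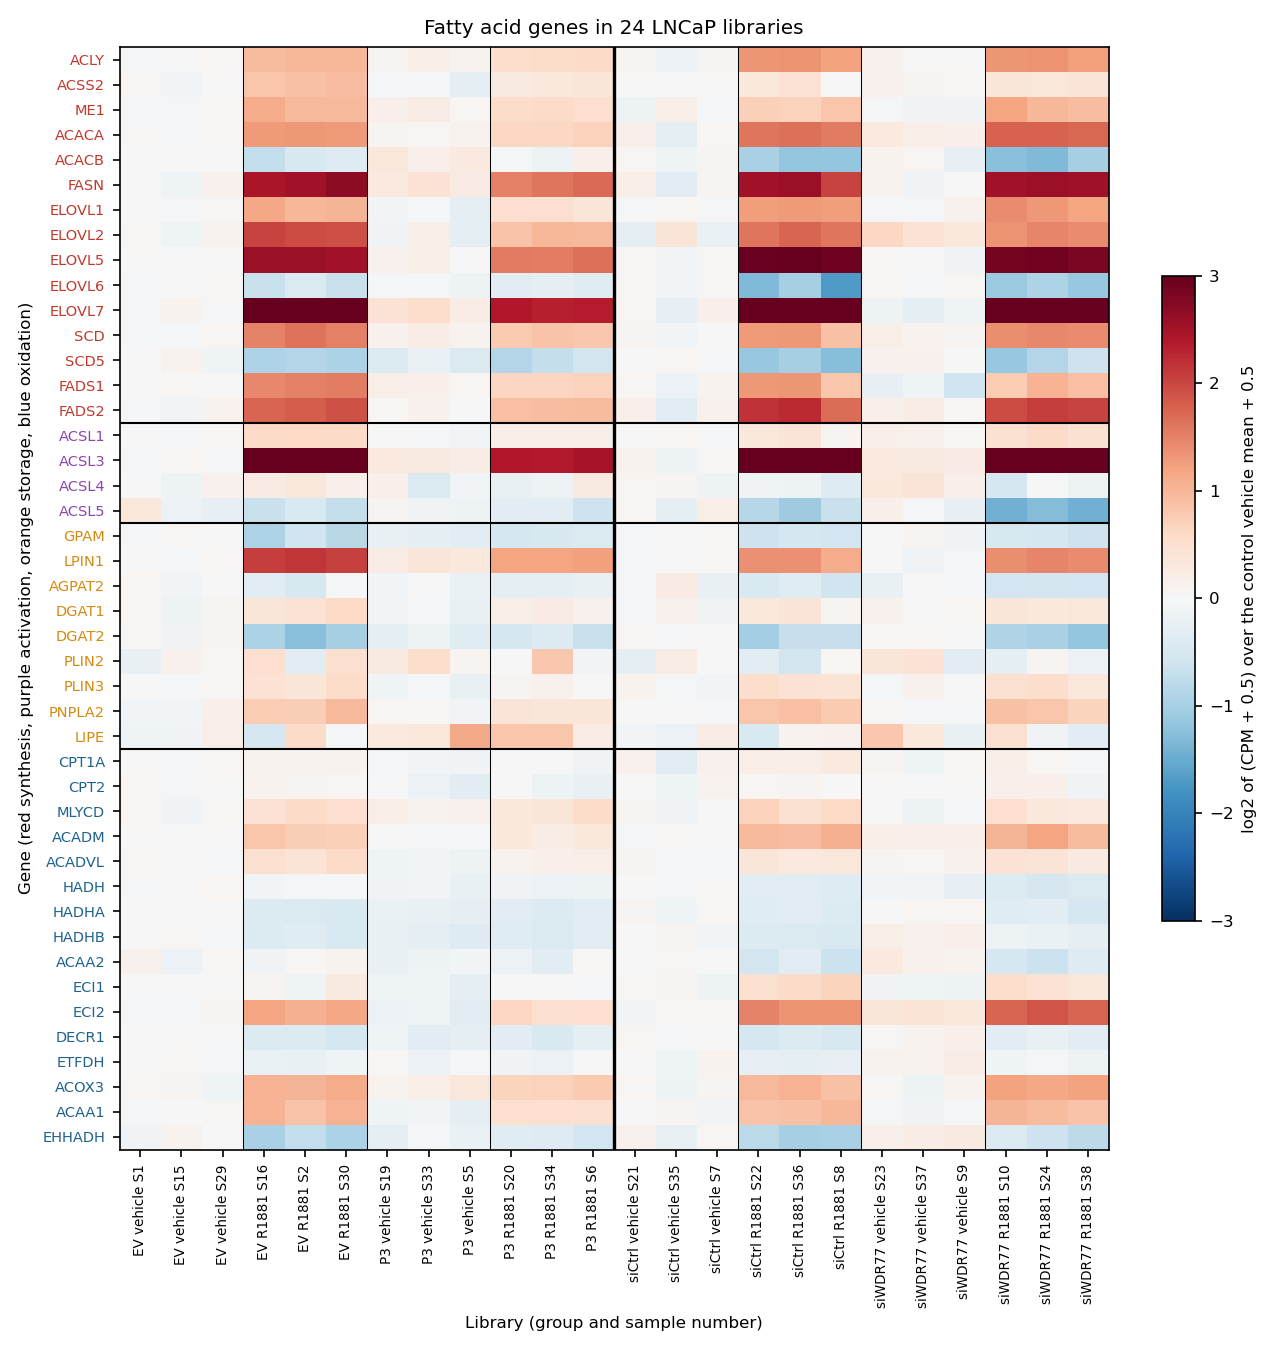
Levels of the 44 tested fatty acid genes (rows, by function) in all 24 libraries (columns, by group), as log2 of CPM + 0.5 over the mean of the vehicle libraries of EV (study 1) or siCtrl (study 2) + 0.5, with colours saturated at -3 and 3. Most synthesis rows are high in both R1881 groups of study 2 and in EV with R1881, and paler in P3 with R1881, while ACACB, ELOVL6, SCD5, GPAM and DGAT2 are low with R1881.

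Split by function, the counts were as follows. Beside them and the counts of smaller families below, 24.9% of all genes rose and 26.4% fell. Called rises of at least 2-fold were 7.1% of all genes. Of the 15 synthesis genes 12 rose and 3 fell, with a median log2 change of 1.28 and 10 rises of at least 2-fold. Of the 4 acyl-CoA synthetases 2 rose and none fell. Of the 9 storage genes 4 rose and 3 fell (median 0.46), and of the 16 oxidation genes tested 6 rose and 5 fell (median 0.09).

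All 3 genes of carbon and reductant supply rose. ACLY, which splits exported citrate into cytosolic acetyl-CoA, went from 535 ± 19.6 to 1053 ± 15.7 CPM (mean ± SD, n = 3 in each group, as throughout), a log2 change of 0.98 ± 0.046 (SE, edgeR adjusted p = 1.99e-21). ACSS2, which makes acetyl-CoA from acetate, rose by 0.88 ± 0.063 (SE, edgeR adjusted p = 1.25e-15), and ME1, the cytosolic malic enzyme that yields NADPH, by 1.03 ± 0.059 (SE, edgeR adjusted p = 8.85e-19). The carboxylation step split between its isoforms: ACACA, the cytosolic carboxylase of synthesis, rose by 1.28 ± 0.047 (SE, edgeR adjusted p = 2.17e-25).

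FASN, the synthase itself, is on chromosome 17 (82078333 to 82098332, minus strand, GRCh38, GENCODE 29) and had the highest level of the 45 genes with R1881. Its EV libraries were at 2309, 2132 and 2557 CPM with vehicle and at 13370.4, 12669.7 and 14908 CPM with R1881, in order of sample number as in all lists below. The lowest R1881 library was far above the highest vehicle library, and the log2 change was 2.55 ± 0.074 (SE, edgeR adjusted p = 4.06e-16), a 5.85-fold rise. Per kilobase of exon, FASN rose from 249.1 to 1458 CPM. Its values are listed because of this level and not by the rule used for the other genes.

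Of the 5 elongases 4 rose. ELOVL7, an elongase of long saturated chains (chromosome 5, 60751791 to 60844389, minus strand), was read at 20.02, 22.1 and 19.6 CPM in the EV vehicle libraries and at 218, 206 and 196 CPM with R1881, a 10.01-fold rise (log2 3.32 ± 0.071 SE, edgeR adjusted p = 1.24e-33). ELOVL5, which extends polyunsaturated chains, went from 379, 384 and 389 to 2278, 2306 and 2209 CPM. In both genes the libraries of a group lay close together and the groups far apart, and ELOVL5 carried most of the elongase reads. ELOVL2, which extends still longer polyunsaturated chains, was scarce, at 0.383, 0.286 and 0.426 CPM with vehicle and 2.84, 3.01 and 2.82 CPM with R1881, and rose by 2.99 ± 0.39 (SE, edgeR adjusted p = 1.96e-08). ELOVL1, which makes very long chains, rose by 1.06 ± 0.060 (SE, edgeR adjusted p = 2.38e-18).

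Of the 4 desaturases 3 rose. SCD, which puts the first double bond into stearate and palmitate, went from 911 ± 28.7 to 2655 ± 132 CPM (log2 1.54 ± 0.048 SE, edgeR adjusted p = 1.01e-27). FADS1 and FADS2, which desaturate polyunsaturated chains, lie beside each other on opposite strands of chromosome 11 and rose by 1.5 ± 0.052 and 1.82 ± 0.053 (SE, edgeR adjusted p = 4.95e-26 and 9.74e-29). Their exons overlap each other or neighbours over 5.57% and 4.89% of their length, and whether counting used strand is not given in the sources used here. Reads of these stretches could belong to either gene.

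In each of 3 isoform families 1 synthesis gene went against the rest. ACACB, the carboxylase isoform at the mitochondrial surface whose malonyl-CoA restrains the carnitine shuttle, was at 20.9, 20.5 and 20.8 CPM with vehicle and 14.7, 12.3 and 15.9 CPM with R1881. It fell by 0.54 ± 0.11 (SE, edgeR adjusted p = 3.12e-05) on the log2 scale, with no overlap between the groups. ELOVL6, which takes palmitate to stearate, was at 69.7, 72.3 and 72.9 and then 52.8, 44.8 and 44.9 CPM, again without overlap, and fell by 0.59 ± 0.067 (SE, edgeR adjusted p = 4.92e-10). SCD5, the second stearoyl-CoA desaturase, was at 25.8, 27.8 and 23.5 CPM with vehicle and 13.8, 13.3 and 13.2 CPM with R1881, where all 3 libraries were near each other, and fell by 0.94 ± 0.10 (SE, edgeR adjusted p = 3.45e-10).

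The isoform make-up moved with these changes. On the scale of CPM per kilobase, ACACB made up 4.099% of the 2 acetyl-CoA carboxylases in EV with vehicle and 1.19% with R1881, and SCD5 3.41% and 0.629% of the 2 stearoyl-CoA desaturases. Among the elongases ELOVL5 went from 61.6% to 79.5% of the sum and ELOVL7 from 2.75% to 6.05%. ELOVL1 went from 29.6% to 13.5% although it rose, and ELOVL6 from 5.999% to 0.871%. These shares are means of 3 libraries, given as descriptions.

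**Figure D2:**
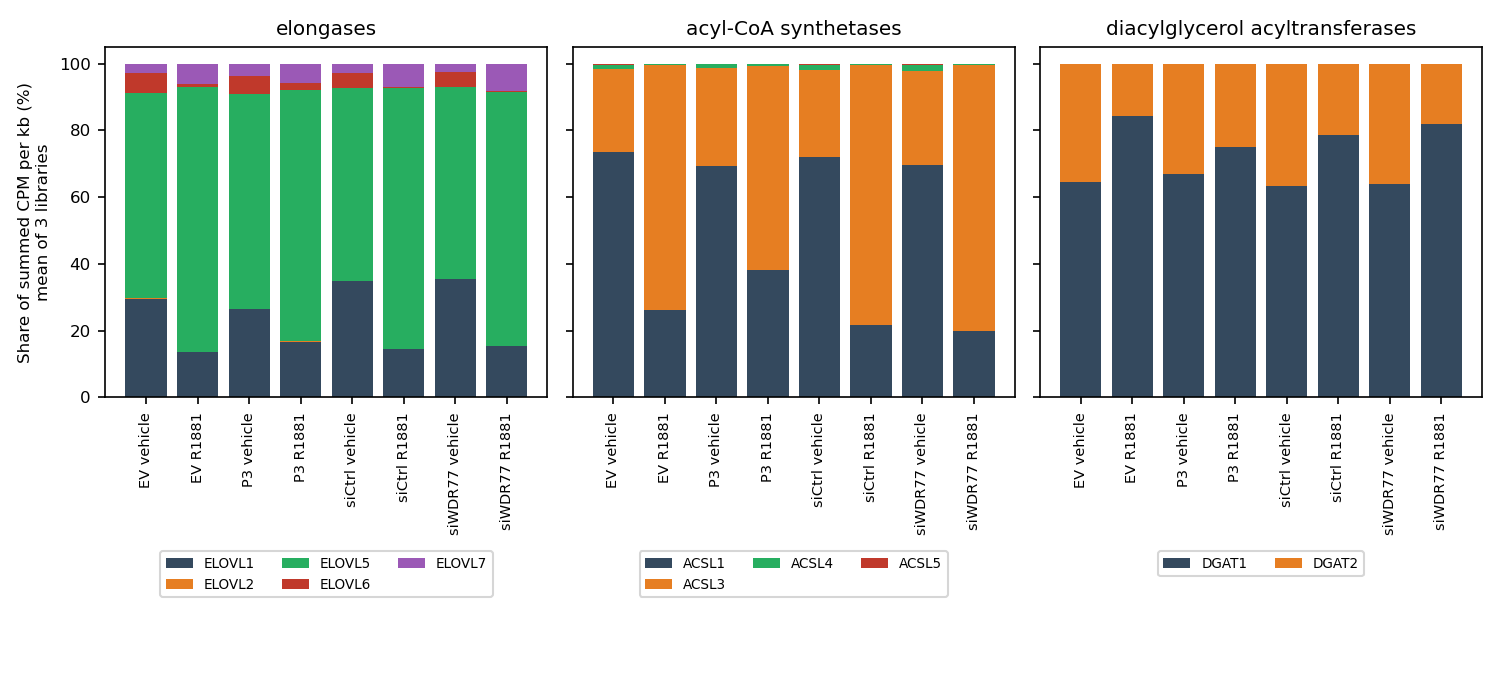
Share of each gene in the summed CPM per kilobase of the elongases, the acyl-CoA synthetases and the diacylglycerol acyltransferases (y axis, percent, mean of 3 libraries) in the 8 groups (x axis). With R1881 the synthetases go from mostly ACSL1 (73.5% in EV with vehicle) to mostly ACSL3 (73.3% in EV with R1881), and the part of DGAT2 shrinks from 35.5% to 15.8%.

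The make-up of the acyl-CoA synthetases shifted with R1881. ACSL3, an acyl-CoA synthetase of the endoplasmic reticulum and lipid droplets (chromosome 2, 222860934 to 222944639, plus strand), was at 159, 171 and 158 CPM in the EV vehicle libraries and at 2024, 2043 and 1909 CPM with R1881, the largest fold change of the 44 genes in EV (12.3-fold). ACSL1, a synthetase of several membranes, was at 416, 406 and 422 CPM and then 629, 617 and 617.6 CPM, separated but close, and rose by 0.58 ± 0.046 (SE, edgeR adjusted p = 2.30e-14). Per kilobase, ACSL1 held 73.5% of the 4 synthetases with vehicle and 26.3% with R1881, and ACSL3 24.99% and 73.3%.

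The remaining synthetases were scarce. ACSL4, which prefers arachidonate, was at 7.39 ± 0.722 CPM with vehicle and 8.902 ± 0.633 CPM with R1881, a log2 difference of 0.27 that was not called (edgeR adjusted p = 0.145). ACSL5, a mitochondrial and reticulum synthetase, was at 1.37, 0.816 and 0.746 CPM and then 0.5805, 0.423 and 0.393 CPM. These groups did not overlap, yet its log2 difference of -1.04 was not called either (edgeR adjusted p = 0.0542), though it was by library totals (-1.21, edgeR adjusted p = 0.0224).

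Within triglyceride synthesis the steps went in different directions. GPAM, the mitochondrial enzyme that adds the first acyl chain to glycerol phosphate, fell by 0.78 ± 0.070 (SE, edgeR adjusted p = 1.34e-12), and AGPAT2, which adds the second chain, by 0.29 ± 0.088 (SE, edgeR adjusted p = 0.00603), with 1 R1881 library (34.3 CPM) inside the vehicle range and no call without R1881 library S2 (edgeR adjusted p = 0.121). LPIN1, the phosphatase that turns phosphatidate into diacylglycerol, was at 67.5, 65.8 and 69.2 CPM with vehicle and 299, 288 and 281 CPM with R1881. Its groups were far apart, and the rise was 4.29-fold (log2 2.1 ± 0.055 SE, edgeR adjusted p = 2.11e-30).

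The final acyl transfer from diacylglycerol to triglyceride is done by 2 unrelated enzymes, and they moved apart. DGAT2 was at 49.2, 44.6 and 51.1 CPM in EV vehicle libraries and at 19.9, 24.6 and 23.9 CPM with R1881, so that every R1881 library had less than the lowest vehicle library (2.11-fold lower, log2 -1.08 ± 0.087 SE, edgeR adjusted p = 5.04e-14). DGAT1 was at 47.7, 41.4 and 48.7 CPM and then 62.1, 59.7 and 69.4 CPM, also without overlap, and rose by 0.47 ± 0.073 (SE, edgeR adjusted p = 5.37e-07). DGAT2 made up 35.5% of the pair per kilobase with vehicle and 15.8% with R1881.

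Of the droplet proteins, PLIN3 rose by 0.46 ± 0.060 (SE, edgeR adjusted p = 1.62e-08), while PLIN2, the usual coat of lipid droplets in many cells, was read at only 3 to 20 counts per library and was not called in any comparison. PNPLA2, the lipase of the first step of triglyceride breakdown, was at 73.2, 73.7 and 87.2 CPM with vehicle and 132, 132 and 153 CPM with R1881. The groups did not overlap, and it rose by 0.83 ± 0.066 (SE, edgeR adjusted p = 6.88e-14). LIPE, the hormone-sensitive lipase, was near 1 CPM in all groups (0.383 to 2.39 CPM) and was not called.

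Of the 3 genes around the carnitine shuttle 1 was called. CPT1A, the outer-membrane carnitine transferase and gate of the shuttle, was at 279.7, 275 and 285 CPM with vehicle and 300.0, 303 and 302 CPM with R1881. Every R1881 library was slightly above the vehicle libraries, but its log2 difference of 0.11 (95% interval 0.012 to 0.21) was not called (edgeR adjusted p = 0.0552), nor was that of CPT2, the inner-membrane transferase (0.092, 95% interval -0.052 to 0.23, edgeR adjusted p = 0.292). CPT1A was called higher with RLE size factors (0.14, edgeR adjusted p = 0.0101), by DESeq2 (adjusted p = 0.00219), when only the groups compared were fitted (edgeR adjusted p = 0.0266) and without library S29 or S2. MLYCD, which degrades the malonyl-CoA that restrains the shuttle, rose by 0.52 ± 0.080 (SE, edgeR adjusted p = 6.59e-07).

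Of the 10 tested genes of the mitochondrial spiral 3 rose and 4 fell, beside 24.9% and 26.4% of all genes. Both tested acyl-CoA dehydrogenases, enzymes of its first step, rose. ACADM, the medium-chain acyl-CoA dehydrogenase, was at 76.7, 76.96 and 78.4 CPM with vehicle and 128, 138 and 127 CPM with R1881 (log2 0.76 ± 0.056 SE, edgeR adjusted p = 4.07e-15). ACADVL, the very long-chain enzyme, was at 503, 488 and 484 and then 659, 683 and 736 CPM (log2 0.49 ± 0.049 SE, edgeR adjusted p = 1.40e-11). In both genes every R1881 library lay above every vehicle library. ECI2, an isomerase that prepares unsaturated chains for oxidation, was at 87.6, 88.7 and 95.3 CPM and then 191, 207 and 205 CPM and rose by 1.15 ± 0.059 (SE, edgeR adjusted p = 2.52e-20), but 29.8% of its exon length overlaps genes on the opposite strand.

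Of the other 7 genes 4 fell and 3 were not called. HADHA and HADHB, the 2 subunits of the trifunctional protein, are transcribed from opposite strands of chromosome 2, with 306 bases between their start sites (26244632 for HADHA and 26244939 for HADHB). HADHA was at 311, 314 and 316 CPM with vehicle and 231, 238 and 229 CPM with R1881. HADHB was at 215, 220.1 and 211 and then 168, 162 and 156 CPM. Both fell, by 0.43 ± 0.048 and 0.41 ± 0.053 on the log2 scale (SE, edgeR adjusted p = 3.92e-10 and 1.51e-08), without overlap of the groups. DECR1, the dienoyl-CoA reductase for polyunsaturated chains, fell by 0.46 ± 0.074 (SE, edgeR adjusted p = 1.24e-06), and ETFDH, which passes the electrons on to ubiquinone, by 0.19 ± 0.067 (SE, edgeR adjusted p = 0.0194). ETFDH was not called with RLE size factors (edgeR adjusted p = 0.0573), by DESeq2 (adjusted p = 0.0692) or without any 1 of the EV vehicle libraries S1 and S15 and the R1881 libraries S2 and S16 (edgeR adjusted p of 0.0533 to 0.101). HADH, the short-chain hydroxyacyl-CoA dehydrogenase (-0.048), the thiolase ACAA2 (0.032) and the isomerase ECI1 (0.091) were not called in EV (log2 differences). ECI1 had R1881 libraries at 137, 158 and 181 CPM around vehicle libraries at 149, 147 and 149 CPM, and without R1881 library S2 it was called higher (0.21, edgeR adjusted p = 0.00321). By library totals HADH was called lower (-0.22, edgeR adjusted p = 4.28e-04).

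Of the 3 peroxisomal genes 2 rose and 1 fell, beside 24.9% and 26.4% of all genes. ACOX3, the oxidase of branched chains, was at 25.8, 27.01 and 23.3 CPM with vehicle and 52.2, 53.2 and 55.8 CPM with R1881. ACAA1, the peroxisomal thiolase, was at 98.7, 102 and 104 and then 183, 210.1 and 208 CPM. They rose by 1.08 ± 0.078 and 0.98 ± 0.058 (log2, SE, edgeR adjusted p = 1.64e-15 and 2.98e-18), and 21.2% of the exon length of ACAA1 overlaps other genes, DLEC1 on the opposite strand among them. EHHADH, a bifunctional hydratase and dehydrogenase, was at 14.4, 16.7 and 15.3 CPM and then 9.11, 7.61 and 7.73 CPM. Its groups did not overlap, it fell by 0.93 ± 0.12 (SE, edgeR adjusted p = 1.71e-08), and its share of the 3 peroxisomal genes per kilobase went from 13.6% to 3.97%.

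Added up per kilobase, the synthesis genes gained more than the oxidation genes. The 15 synthesis genes summed to 831 ± 38.8 CPM per kilobase in EV with vehicle and 3296 ± 118 with R1881. The oxidation genes summed to 418 ± 0.862 and 486 ± 16.7. For the 4 synthetases the sums were 89.8 ± 0.604 and 376 ± 10.5, and for the storage genes 99.9 ± 4.26 and 140.0 ± 8.91. The ratio of the synthesis to the oxidation sum was 1.99 (1.91 to 2.09) with vehicle and 6.79 (6.502 to 7.05) with R1881 (mean and range of 3 libraries). FASN made up a large part of it, and without FASN the ratios were 1.39 (1.37 to 1.44) and 3.79 (3.64 to 3.997), still without overlap.

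Study 2 repeated the hormone comparison in cells with the control siRNA. There 25 of the 44 genes rose and 14 fell, against 25.7% and 25.4% of the 17893 genes tested (51.1% in either direction), and both counts were the same without library S35. By function 12 synthesis genes rose and 3 fell, 2 synthetases rose and 1 fell, 4 storage genes rose and 3 fell, and 7 oxidation genes rose and 7 fell. The 24 genes that rose in EV cells all rose in siCtrl cells (96% of the 25 there), and the 11 that fell all fell (78.6% of the 14). The studies share no library, but they share the cell line, the hormone and the processing. Over the 44 genes the log2 changes of both control arms had a Pearson r of 0.96 and equal sign in 40 (90.9%), and over 17236 genes r was 0.82 and the sign equal in 76.5%, as a description across genes.

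**Figure D3:**
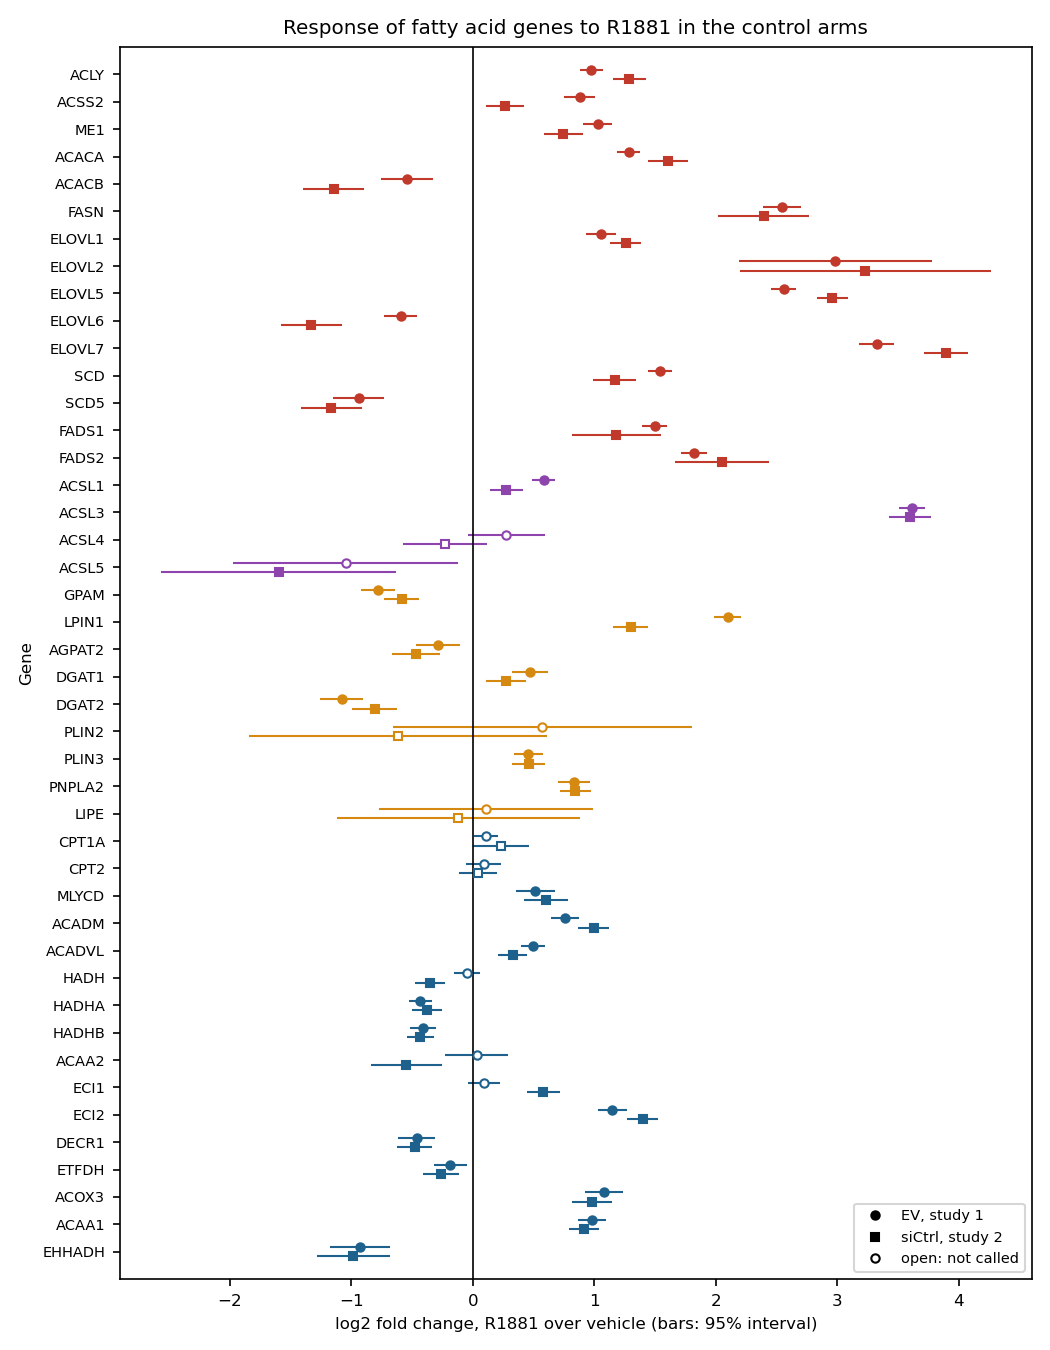
Log2 fold change with R1881 against vehicle (x axis) of the 44 tested genes (rows, by function) in EV (circles) and siCtrl cells (squares), with 95% intervals; open symbols were not called. ACSL3 and ELOVL7 lie farthest right in both arms (3.62 and 3.32 in EV, 3.6 and 3.89 in siCtrl), and ELOVL6, ACACB, SCD5, DGAT2 and EHHADH lie left of 0 in both.

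The largest changes again included ELOVL7 and ACSL3. ELOVL7 was at 18.9, 17.8 and 14.3 CPM with vehicle and at 229, 259.7 and 269.5 CPM with R1881 in siCtrl cells (log2 3.89 ± 0.087 SE, edgeR adjusted p = 4.40e-20). ACSL3 was at 123, 130.0 and 109 CPM with vehicle and at 1269.8, 1543 and 1559.7 CPM with R1881 (log2 3.6 ± 0.083 SE, edgeR adjusted p = 2.68e-19). Neither gene had overlapping groups. ELOVL5 was at 312, 313 and 287 CPM with vehicle and at 2282, 2369 and 2451 CPM with R1881, and rose by 2.96 on the log2 scale. ELOVL2, with few reads, was at 0.0806, 0.0497 and 0.362 and then 1.53, 1.53 and 1.71 CPM, also without overlap. FASN was at 1648, 1782 and 1262 CPM with vehicle and at 6390.2, 8968 and 9298 CPM with R1881, and rose by 2.39 ± 0.17 (SE, edgeR adjusted p = 1.12e-06). S35 was the lowest FASN library with vehicle and S8 the lowest with R1881. S8 was also the lowest of its group for SCD, FADS1, FADS2 and ACSL3, and the counts of 25 and 14 were the same without it.

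The genes that went against their family did so again. ELOVL6 was at 47.5, 47.1 and 43.5 CPM with vehicle and at 13.8, 18.2 and 22.7 CPM with R1881, and fell by 1.33 ± 0.12 (SE, edgeR adjusted p = 2.19e-08). ACACB was at 24.4, 23.9 and 20.99 CPM with vehicle and at 9.99, 11.5 and 9.895 CPM with R1881, and fell by 1.14 ± 0.12 (SE, edgeR adjusted p = 1.87e-08). SCD5 was at 21.4, 22.7 and 23.2 CPM with vehicle and at 9.03, 9.86 and 11.02 CPM with R1881, and fell by 1.17 ± 0.12 (SE, edgeR adjusted p = 1.26e-08). In all 3 the R1881 libraries lay below every vehicle library.

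In storage the diverging steps were also seen in siCtrl cells. LPIN1 was at 54.4, 51.3 and 53.8 CPM with vehicle and at 115, 139 and 139 CPM with R1881, with no overlap. PNPLA2 was at 80.9, 83 and 82.9 CPM with vehicle and at 142, 147 and 154 CPM with R1881. DGAT2 was at 44.6, 46.7 and 43.7 CPM with vehicle and at 27.5, 22.02 and 27.7 CPM with R1881. LPIN1 and PNPLA2 were separated upwards and DGAT2 downwards. DGAT1 rose by 0.27 ± 0.079 (SE, edgeR adjusted p = 0.00606) although its groups overlapped, with vehicle libraries at 38.4, 40.03 and 44.5 CPM and R1881 libraries at 43.4, 51.2 and 53.5 CPM. ACSS2 was another gene called with overlapping groups, at 70.6, 71.8 and 72.5 CPM with vehicle and 72.1, 88.8 and 96.9 CPM with R1881, where S8 was the lowest. By library totals the log2 difference of DGAT1 was 0.0094 and that of ACSS2 0.0014, and neither was called (edgeR adjusted p = 0.923 and 0.988). Without siCtrl R1881 library S36 both also lost the call (edgeR adjusted p = 0.0546 for DGAT1 and 0.0768 for ACSS2).

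In oxidation, siCtrl cells had calls that EV cells lacked. ECI1 was at 143, 165 and 169 CPM with vehicle and at 252, 224 and 239 CPM with R1881, and rose by 0.58 ± 0.066 (SE, edgeR adjusted p = 5.00e-08). HADH fell by 0.35 ± 0.061 (SE, edgeR adjusted p = 3.11e-05) and ACAA2 by 0.55 ± 0.14 (SE, edgeR adjusted p = 0.00231). Whether these responses differ between the studies was not tested. ECI2 was at 61.9, 57.3 and 61.5 CPM with vehicle and at 155, 169 and 154 CPM with R1881. ACADM was at 65.5, 64.8 and 67.6 CPM with vehicle and at 138, 129.8 and 127 CPM with R1881. ACADVL was at 488, 529 and 482 CPM with vehicle and at 633, 642 and 608 CPM with R1881. These isomerase and dehydrogenase genes rose without overlap, as in EV, but by library totals ACADVL was at 0.067 and not called (edgeR adjusted p = 0.325). Both carnitine transferases were not called, CPT1A at 0.23 and CPT2 at 0.043 on the log2 scale, and CPT2 turned to -0.22 by library totals. CPT1A was called higher by DESeq2 (adjusted p = 0.0341), with all 24 libraries in 1 fit (edgeR adjusted p = 0.0127), with no filter on low counts (edgeR adjusted p = 9.21e-04) and without vehicle library S7 (edgeR adjusted p = 0.0394).

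The peroxisomal genes repeated their pattern. ACOX3 was at 31.1, 30.4 and 26.4 CPM with vehicle and at 54.7, 57.7 and 61.03 CPM with R1881. ACAA1 was at 136, 145 and 153 CPM with vehicle and at 291, 261 and 268 CPM with R1881. EHHADH was at 11.3, 11.8 and 9.18 CPM with vehicle and at 5.28, 5.92 and 5.13 CPM with R1881. The oxidase and the thiolase gene rose and the bifunctional enzyme gene fell, all without overlap. The ratio of the synthesis to the oxidation sum was 1.38 (1.28 to 1.44) with vehicle and 4.703 (4.02 to 5.15) with R1881.

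Among the synthetases of siCtrl cells, ACSL1 was at 279, 288 and 302 CPM with vehicle and 308, 362 and 381 CPM with R1881, a small rise of 0.28 ± 0.066 (SE, edgeR adjusted p = 0.00111) that library totals took to 0.014 (edgeR adjusted p = 0.859). ACSL5 was at 1.21, 1.04 and 0.724 CPM and then 0.445, 0.329 and 0.214 CPM, below every vehicle library, and fell by 1.6 ± 0.47 (SE, edgeR adjusted p = 0.00622). ACSL3 reached 78% of the synthetases per kilobase with R1881, from 26% with vehicle.

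In cells with the P3 construct R1881 moved 24 of the 44 genes up and 5 down, against 13% and 7.96% of all genes (21% in either direction). When libraries were scaled by their totals alone, which shifts the median of all genes by less than 0.1, the split was 22 and 10. All 24 had also risen in EV, all 5 (ACACB, ELOVL6, SCD5, GPAM and DGAT2) had also fallen there, and 6 genes that fell in EV were not called in P3: AGPAT2, HADHA, HADHB, DECR1, ETFDH and EHHADH. By library totals 5 of these 6, all but ETFDH, were called lower in P3 too. All 35 genes called in EV had a log2 change nearer to 0 in P3, a count not made for the whole table. Among the 15 genes called and changed at least 2-fold in EV, the median share of the EV log2 change seen in P3 was 48.3%, from 25.9% for DGAT2 to 65.2% for ECI2. For the 2652 such genes of the whole table it was 34.3% (quartiles 21.7% and 49.7%). The 35 genes and those of both sets were picked by their EV response, which makes the count and these shares descriptions.

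**Figure D4:**
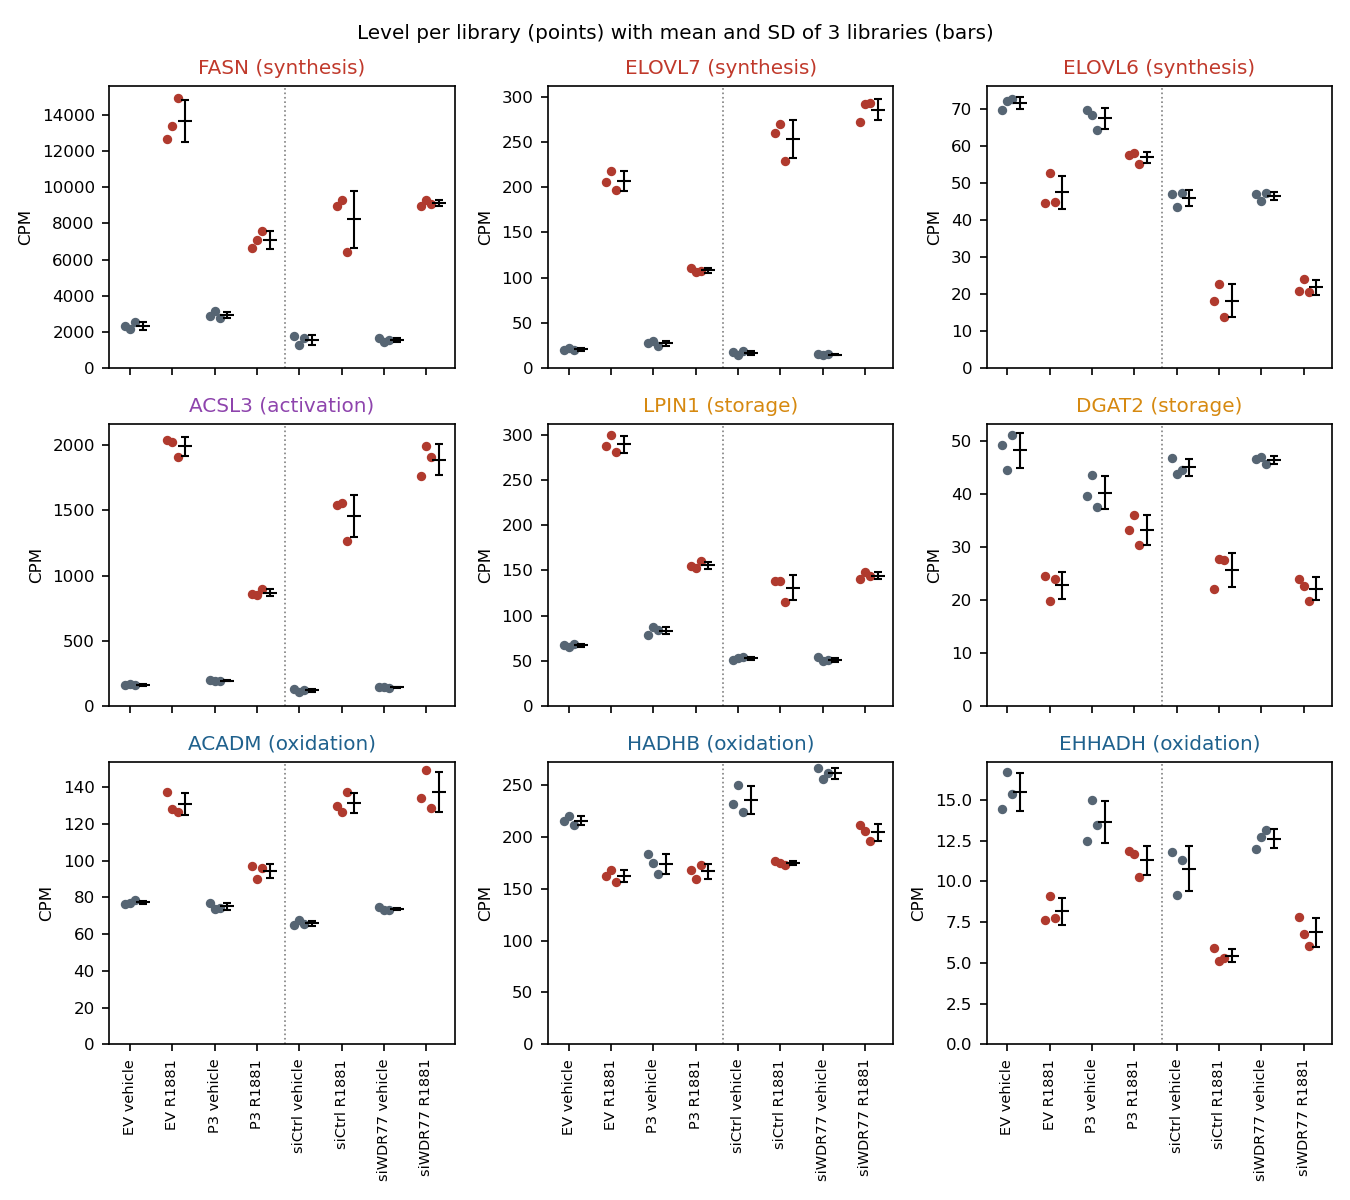
CPM (y axis) of 9 genes in the 8 groups (x axis), with a point per library and the mean and SD of 3 libraries. FASN, ELOVL7, ACSL3 and LPIN1 reach lower levels with R1881 in P3 than in EV (7086 against 13649 CPM for FASN), DGAT2 and EHHADH stay higher there, and siCtrl and siWDR77 lie close together.

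FASN was at 2786, 2854 and 3132 CPM with vehicle and at 7580.4, 6614 and 7064 CPM with R1881 in P3 cells, a log2 rise of 1.28 ± 0.071 (SE, edgeR adjusted p = 5.91e-11). ELOVL7 was at 24.3, 27.99 and 29.8 CPM with vehicle and at 107, 111 and 106 CPM with R1881 (log2 1.98 ± 0.068 SE, edgeR adjusted p = 1.29e-25). ACSL3 was at 189.6, 198 and 195 CPM with vehicle and at 899, 858 and 849.9 CPM with R1881 (log2 2.16 ± 0.050 SE, edgeR adjusted p = 2.67e-31). For all 3 genes the P3 libraries with R1881 stood above their vehicle libraries and below every EV library with R1881. LPIN1 was at 84.5, 79.1 and 87.1 CPM with vehicle and at 160.3, 154 and 153 CPM with R1881. ELOVL5 was at 389.8, 417 and 431 CPM with vehicle and at 1199, 1140.3 and 1107 CPM with R1881. ELOVL2 was at 0.209, 0.305 and 0.481 CPM with vehicle and at 1.21, 1.06 and 1.23 CPM with R1881. These libraries too lay between the P3 vehicle and the EV R1881 libraries. Among falling genes DGAT2 was at 37.6, 39.6 and 43.7 CPM with vehicle and at 30.3, 33.2 and 35.98 CPM with R1881 (log2 -0.28 ± 0.083 SE, edgeR adjusted p = 0.0119). ELOVL6 was at 64.3, 69.8 and 68.5 CPM with vehicle and at 55.2, 57.6 and 58.2 CPM with R1881. SCD5 was at 18.9, 19.4 and 22.2 CPM with vehicle and at 17.4, 13.8 and 15.6 CPM with R1881. In these 3 the R1881 libraries lay below every vehicle library.

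ACACB was at 25.4, 26.6 and 22.9 CPM with vehicle and at 23.3, 19.9 and 18.7 CPM with R1881 in P3 cells, where the groups overlapped and the fall of 0.28 was called narrowly (edgeR adjusted p = 0.0397). Leaving out 1 P3 library ended the call of ACACB (vehicle S5 or S19, R1881 S20 or S34), of GPAM (vehicle S19, R1881 S20), of DGAT2 (vehicle S33, R1881 S6) and of SCD5 (R1881 S20). HADHB was at 164, 183 and 175 CPM with vehicle and at 173, 168 and 159 CPM with R1881, with a log2 difference of -0.061 that was not called (95% interval -0.17 to 0.047). HADHA had a difference of -0.12 (95% interval -0.22 to -0.024) and was not called either, but DESeq2 called it lower (adjusted p = 0.0304), as did library totals (-0.21, edgeR adjusted p = 4.93e-04). EHHADH was at 13.4, 12.5 and 14.99 CPM with vehicle and at 10.3, 11.9 and 11.7 CPM with R1881, and was not called (edgeR adjusted p = 0.0951), although its groups did not overlap. The rising oxidation genes were called. ECI2 was at 72.1, 80.5 and 82.9 CPM with vehicle and at 129, 139.8 and 127 CPM with R1881. ACADM was at 74.3, 77.1 and 73.8 CPM with vehicle and at 95.9, 97.2 and 90.1 CPM with R1881. ACOX3 was at 32.3, 27.5 and 29.3 CPM with vehicle and at 43.9, 40.7 and 41.5 CPM with R1881. In these, as in ACAA1 and PNPLA2, every R1881 library was above every vehicle library.

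The difference between both responses was itself tested. It was called in 29 of the 44 genes, against 22.6% of all genes, with 21 negative and 8 positive (11.1% and 11.5% of all genes). The 21 negative ones all belong to genes that rose in EV, and the 8 positive ones, ELOVL6, SCD5, GPAM, DGAT2, HADHA, HADHB, DECR1 and EHHADH, to genes that fell there. The EV response enters both quantities, which makes this split a description. On the log2 scale the difference was -1.45 ± 0.068 (SE, edgeR adjusted p = 7.67e-20) for ACSL3, -1.34 ± 0.097 (SE, edgeR adjusted p = 2.66e-14) for ELOVL7, -1.27 ± 0.100 (SE, edgeR adjusted p = 1.19e-08) for FASN and -1.2 ± 0.076 (SE, edgeR adjusted p = 4.22e-16) for LPIN1. It was 0.80 ± 0.12 (SE, edgeR adjusted p = 1.54e-06) for DGAT2 and 0.66 ± 0.17 (SE, edgeR adjusted p = 0.00309) for EHHADH. For ELOVL2 the difference of -1.19 was not called (edgeR adjusted p = 0.164), and ACACB (0.26, edgeR adjusted p = 0.204) was not called either. Of the 6 genes called in EV and not in P3, HADHA, HADHB, DECR1 and EHHADH had a called difference, and AGPAT2 and ETFDH did not. The called differences of PLIN3, ACADVL, DECR1 and ELOVL6 did not hold in every alternative fit, as given further below.

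**Figure D5:**
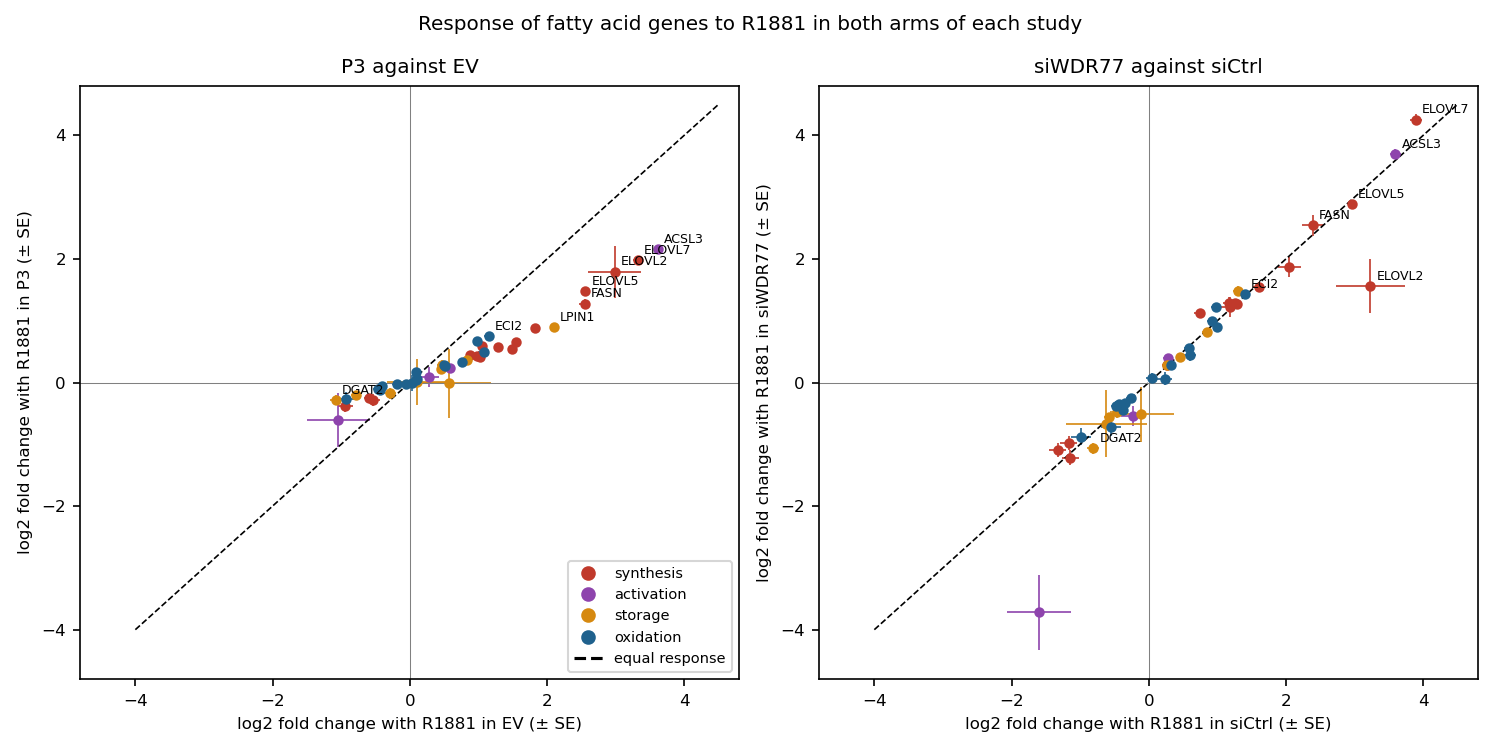
Log2 fold change with R1881 in the second arm (y axis) against the control arm (x axis) for the 44 genes, P3 against EV on the left and siWDR77 against siCtrl on the right, with SE bars and a dashed line of equal response. The P3 points of called genes lie between 0 and the line, as for ACSL3 (3.62 in EV and 2.16 in P3), and most siWDR77 points lie near it (3.6 and 3.7 for ACSL3), except ELOVL2 and ACSL5, which had few reads.

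Compared at the same treatment, P3 cells differed from EV cells in both conditions. With R1881, 25 of the 44 genes were lower in P3 and 5 higher, against 18.9% and 18.1% of all genes (37% in either direction), and 22 and 10 by library totals, which shift the median of all genes by 0.16. The genes lower in P3 with R1881 included, on the log2 scale, FASN (-0.95 ± 0.071 SE, edgeR adjusted p = 3.05e-09), ELOVL5 (-0.98), ELOVL7 (-0.94), SCD (-0.74) and ECI2 (-0.61). DGAT2 (0.54 ± 0.089 SE, edgeR adjusted p = 4.22e-06), ACACB (0.53), EHHADH (0.47), GPAM (0.30) and ELOVL6 (0.26) were higher. CPT1A was called lower (-0.14, edgeR adjusted p = 0.0154), a direction that turned to 0.014 under library totals.

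With vehicle, 6 genes were higher in P3 than in EV and 8 lower, against 7.93% and 7.88% of all genes (15.8% in either direction). This split depended on the scaling and on single libraries: it was 13 and 3 by library totals, and the count of lower genes was 3 without the P3 vehicle library S5 and 4 without the EV vehicle library S29. Higher with vehicle were ELOVL7 (0.40), FASN (0.33), LPIN1 (0.31), ACSL3 (0.26), ACOX3 (0.23) and SCD (0.15). Lower were SCD5 (-0.35), HADHB (-0.31), GPAM (-0.27), DGAT2 (-0.26), DECR1 (-0.25), HADHA (-0.23), ECI2 (-0.21) and ACAA1 (-0.17). All were under 0.5 in size on the log2 scale. The 6 genes higher in P3 with vehicle had risen with R1881 in EV. Of the 8 lower genes 6 had fallen there, and ECI2 and ACAA1 had risen. Because these comparisons use the same vehicle and R1881 libraries as the responses, they are given side by side and not as separate support.

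The ratio of the synthesis to the oxidation sum lay between both EV groups, at 2.49 (2.42 to 2.59) in P3 with vehicle and 4.399 (4.23 to 4.51) with R1881. In P3 cells with R1881 ACSL3 held 61.2% of the synthetases per kilobase and DGAT2 24.9% of the diacylglycerol acyltransferases. WDR77 itself, at 89.3, 101 and 94.7 CPM in these libraries and 59.4, 58.8 and 64.01 CPM in EV with R1881, was higher there (log2 0.64 ± 0.067 SE, edgeR adjusted p = 2.31e-10), and its part in the difference was not tested.

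In siWDR77 cells, where WDR77 was low, 25 of the 44 genes rose with R1881 and 15 fell, against 27.7% and 25.5% of all genes (53.2% in either direction). All 25 that rose and 14 that fell in siCtrl did so again, and ACSL4 was added (-0.54 ± 0.16 SE, edgeR adjusted p = 0.00761). For the 17 genes called and changed at least 2-fold in siCtrl, the median share of the log2 change seen in siWDR77 was 102.5%, and 98.9% for all 3108 such genes. By library totals, which shift the median of all genes by -0.30 here and by -0.26 in siCtrl, the small rises of ACSS2 (0.28), DGAT1 (0.28) and ACADVL (0.28) turned to -0.016, -0.014 and -0.019 and were not called.

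FASN was at 1547, 1682 and 1449 CPM with vehicle and at 8952, 9281 and 9090.0 CPM with R1881 in siWDR77 cells (log2 2.55 ± 0.17 SE, edgeR adjusted p = 6.62e-07). ELOVL7 was at 15.5, 15.3 and 14.03 CPM with vehicle and at 272, 292 and 293 CPM with R1881 (log2 4.26 ± 0.089 SE, edgeR adjusted p = 1.05e-20). ACSL3 was at 143, 149 and 146 CPM with vehicle and at 1762, 1994 and 1912 CPM with R1881. All 3 were far apart between treatments. LPIN1 was at 50.8, 53.8 and 49.5 CPM with vehicle and at 140.5, 148 and 144 CPM with R1881. DGAT2 was at 45.7, 46.5 and 47.05 CPM with vehicle and at 24.04, 22.7 and 19.8 CPM with R1881. ELOVL6 was at 47.3, 47.1 and 45.2 CPM with vehicle and at 20.9, 24.1 and 20.5 CPM with R1881. LPIN1 rose, and DGAT2 and ELOVL6 fell, without overlap. ACACB was at 19.5, 25.05 and 23.9 CPM with vehicle and at 9.37, 8.86 and 11.3 CPM with R1881. EHHADH was at 13.2, 12 and 12.7 CPM with vehicle and at 7.79, 6.79 and 6.02 CPM with R1881. These also fell without overlap. ACSL5 had 14, 31 and 21 counts in the vehicle libraries and 1, 2 and 1 with R1881, too few for a fold change.

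In the main edgeR fit the difference in response between siWDR77 and siCtrl was called in 0 of the 44 genes and in 0% of all genes. At an unadjusted p under 0.05, 5 of the 44 and 1484 of 17893 genes passed, and DESeq2 called 56 genes. Other edgeR fits called 112 of 36927 genes with no filter on low counts and 40 with all 24 libraries in 1 fit. They called 16 with the replicate block described below and 1 by library totals. Without S35, 1 of the 44 was called, ELOVL7 (0.45, edgeR adjusted p = 0.0439). The 95% intervals of these differences were 0.16 to 1.75 wide on either side (median 0.23). For 26 of the 29 genes whose response differed between P3 and EV, the interval in study 2 left out the estimate of study 1. Those 29 were picked by their study 1 difference, and the error of that estimate is not counted. Whether the differences differ between the studies was not tested. For FASN the interval in study 2 was -0.35 to 0.66 around 0.15, and for ACSL3 -0.12 to 0.32 around 0.100. For ME1, which had the smallest p of the 44, it was 0.15 to 0.60 around 0.38 (edgeR adjusted p = 0.288). With no filter on low counts the difference of ME1 was called (0.37, edgeR adjusted p = 0.0471).

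Between siWDR77 and siCtrl cells at the same treatment few genes differed. With vehicle 1 of 44 was higher and 0 lower, against 0.682% and 0.844% of all genes (1.53% in either direction): ECI2, at 75.1, 77.9 and 79.9 against 61.9, 57.3 and 61.5 CPM (0.37 ± 0.061 SE, edgeR adjusted p = 0.00135). Without S35, ELOVL2 (2.57, edgeR adjusted p = 0.0474) and HADHB (0.20, edgeR adjusted p = 0.0434) were called too. ACSL3, not called with vehicle in the main fit, was called higher by DESeq2 (0.28, adjusted p = 0.0312). It was also called with all 24 libraries in 1 fit, with no filter on low counts and with the replicate block (edgeR adjusted p = 0.0128, 0.00112 and 0.0354). With no filter ACACA was called higher as well (0.21, edgeR adjusted p = 0.0340). With R1881 5 were higher and 0 lower, against 3.9% and 3.31% (7.22% in either direction). ECI2 was at 202, 223 and 204 against 155, 169 and 154 CPM (0.40 ± 0.059 SE, edgeR adjusted p = 1.54e-04). ACSL3 was at 1762, 1994 and 1912 against 1269.8, 1543 and 1559.7 CPM (0.37 ± 0.075 SE, edgeR adjusted p = 0.00374). ME1 (0.30, edgeR adjusted p = 0.0181), HADHB (0.23, 0.0134) and ACSL1 (0.22, 0.0402) were the others, and the count was 2 without siCtrl library S22 or siWDR77 library S10 and 3 without siCtrl library S8 or siWDR77 library S24. HADHB and ACSL1 each lost the call without any 1 of 5 libraries, and ACSL1 also when only the groups compared were fitted (edgeR adjusted p = 0.0532). SCD, not called here, was called higher by DESeq2 (0.24, adjusted p = 0.0428), with no filter on low counts and with all 24 libraries in 1 fit. ECI2 was lower in P3 than in EV cells under both treatments and higher in siWDR77 than in siCtrl cells under both, and 29.8% of its exon length overlaps other genes. Its difference between P3 and EV with vehicle was not called by library totals (-0.13, edgeR adjusted p = 0.1305). That call was also lost without EV vehicle library S29 or P3 vehicle library S5 (edgeR adjusted p = 0.129 and 0.128).

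Other genes of the pathway were read from lists made beside the 45. Over all genes 24.9% rose and 26.4% fell with R1881 in EV. Of 14 transcription factors and sensors of lipid synthesis 6 rose and 5 fell with R1881 in EV and 7 rose and 3 fell in siCtrl, among them in EV INSIG1, which retains the sterol-sensing complex in the reticulum (2.25 ± 0.054 SE, edgeR adjusted p = 1.06e-31), its escort protein gene SCAP (1.31) and SREBF2 (0.84). SREBF1, which drives fatty acid synthesis genes, rose by 0.42 ± 0.054 (SE, edgeR adjusted p = 1.11e-08), and MLXIPL, a glucose-responsive factor, fell by 1.0 ± 0.29 (SE, edgeR adjusted p = 0.00328). Of 10 further genes of citrate and acetyl-CoA supply 6 rose and 3 fell, with IDH1, a cytosolic source of NADPH, at 1.34 ± 0.050 (SE, edgeR adjusted p = 4.97e-25) and the mitochondrial acetyl-CoA synthetase ACSS1 at -2.19 ± 0.30 (SE, edgeR adjusted p = 5.65e-08). All 4 tested genes of 8 listed for uptake and binding rose, DBI, an acyl-CoA binding protein, by 2.15 ± 0.075 (SE, edgeR adjusted p = 2.83e-17).

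Of 10 genes of the elongation cycle and of mitochondrial synthesis 3 rose and 3 fell (HACD2, a dehydratase of elongation, 0.82), and of 15 other synthetases and thioesterases 3 rose and 5 fell (the thioesterase gene ACOT9 0.78, the transport protein gene SLC27A2 -0.58). Of 17 other storage and lipolysis genes 7 rose and 1 fell, MGLL, the monoglyceride lipase, by 1.52 ± 0.096 (SE, edgeR adjusted p = 2.53e-17) and SOAT1, which esterifies cholesterol, by 1.02 ± 0.065 (SE, edgeR adjusted p = 2.96e-17). Of 14 other genes of mitochondrial oxidation 4 rose and 6 fell, with SLC25A20, the carnitine carrier, up by 1.3 ± 0.090 (SE, edgeR adjusted p = 4.83e-16) and ETFB, an electron transfer subunit, at -0.56 ± 0.065 (SE, edgeR adjusted p = 9.20e-10). Of 13 other peroxisomal genes 6 rose and 3 fell, AMACR, the racemase of branched chains that is used as a prostate cancer marker, by 1.67 ± 0.068 (SE, edgeR adjusted p = 1.14e-23). In siCtrl cells the counts for these 5 lists, in the same order, were 5 up and 4 down, 6 and 3, 7 and 5, 2 and 5, and 5 and 5, and in the 2 supply and uptake lists 6 and 2, and 3 and 0, against 25.7% higher and 25.4% lower over all genes. Several of these counts are near the shares over all genes, and none is read as particular to its list.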

How the data were processed

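RNA was sequenced as poly(A) libraries from wells of 300000 LNCaP cells. The authors deposited unnormalized counts of reads for 60649 features, made with bcl2fastq 2.20, STAR 2.7.9a and featureCounts of Subread 1.6.4 on GRCh38.p7, per the submitters' processing notes. Strand use, multimapped reads and the annotation behind the counting are not described in the sources used here. Over 10% of the exon length overlaps other genes for ECI2, ACAA1, PLIN3 (17.9%), ETFDH (13.8%), CPT2 (12.0%), DGAT1 (11.1%) and PNPLA2 (10.4%), whose reads there cannot be assigned with certainty.

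Columns were matched to samples by the sample number in the titles. No 2 libraries of a group agreed within sampling noise. Each study's 12 libraries were fitted with edgeR 4.0.16 in R 4.3.3 (robust quasi-likelihood F test, TMM scaling, group means, filterByExpr by group, Benjamini-Hochberg adjustment over 17772 and 17893 genes), with 5 comparisons per study and calls at an adjusted p under 0.05. Log2 fold changes have an SE from the F statistic. Levels are CPM on TMM-scaled library sizes within a study and are not compared between studies. CPM per kilobase uses the exon union of GENCODE 29, whose gene versions mostly differ from those of the table, and is approximate. The fits were tested on simulated data. Alternatives were DESeq2 1.42.0, other scalings, filters and sample sets, a replicate block and each library left out. Library totals of at least 16665915 counts set the precision, and a count of 0 allows up to 3 counts, counting error only.

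The 45 genes and the other lists were chosen with earlier results of these data known. Values in every library are given for the 3 genes of each function with the largest change with R1881 in EV and in siCtrl, and for those against the majority of their role, and of each other list up to 3 genes with the smallest adjusted p are named. SREBF1 and MLXIPL were added after their values were seen. A gene left out of the uptake list is not reported here.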

Additional observations from a re-analysis of the deposited data

Results flagged for a closer look

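The response to R1881 differed between P3 and EV cells in 29 of the 44 genes tested, by the edgeR test of the difference itself, and each is given here as the log2 response in P3 minus that in EV. In carbon supply, assembly and carboxylation it was negative for ACLY (-0.55), ACSS2 (-0.43), ME1 (-0.62), ACACA (-0.71) and FASN (-1.27). The elongase and desaturase genes with a negative difference were ELOVL1 (-0.46), ELOVL5 (-1.08), ELOVL7 (-1.34), SCD (-0.89), FADS1 (-0.96) and FADS2 (-0.94), and those with a positive one ELOVL6 (0.35) and SCD5 (0.56). Among synthetases and storage genes it was negative for ACSL1 (-0.35), ACSL3 (-1.45), LPIN1 (-1.2), PLIN3 (-0.24) and PNPLA2 (-0.47) and positive for GPAM (0.57) and DGAT2 (0.80). In oxidation it was negative for ACADM (-0.43), ACADVL (-0.22), ECI2 (-0.40), ACOX3 (-0.58) and ACAA1 (-0.31). The positive differences there were HADHA (0.31), HADHB (0.35), DECR1 (0.35) and EHHADH (0.66). PLIN3 lost the call by library totals and with no filter on low counts (edgeR adjusted p = 0.149 and 0.0891). It also lost it without EV library S15 or S30 or P3 library S19 or S6. ACADVL lost it by library totals, with no filter (edgeR adjusted p = 0.130 and 0.0576) and without EV library S30. DECR1 lost it without P3 library S33 or S20, and ELOVL6 with all 24 libraries in 1 fit. MLYCD gained a call without P3 library S6 (-0.32, edgeR adjusted p = 0.0447). The difference in response between siWDR77 and siCtrl was called in 0 of the 29 genes in the main edgeR fit. In other edgeR fits it was positive and called for ME1 with no filter on low counts (0.37, edgeR adjusted p = 0.0471). For ELOVL7 it was so without siCtrl vehicle library S35 (0.45, edgeR adjusted p = 0.0439).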

How the results depend on the processing

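With library totals in place of TMM scaling, 10 genes were called lower with R1881 in P3, 13 higher and 3 lower in P3 than EV with vehicle, and 10 higher with R1881. Library totals shift the median log2 change of all genes with R1881 by -0.17 in EV. Under them the difference of CPT1A between P3 and EV with R1881 turned to 0.014 (edgeR adjusted p = 0.829). CPT2 turned to -0.22 with R1881 in siCtrl and siWDR77 (edgeR adjusted p = 0.0181 and 0.0177), and ACSS2, DGAT1 and ACADVL to -0.016, -0.014 and -0.019 in siWDR77. The sample numbers fall into 3 runs, which the labels do not explain. Deviations of samples from 1 run correlated at -0.057 to 0.33 in study 1 (median 0.13) and -0.24 to 0.27 in study 2 (median 0.10). Samples from different runs had lower medians, -0.072 and -0.032. As no label explains the runs, samples were not taken as pairs, and the run was fitted only as an alternative. With the run as replicate block 10 genes were higher in P3 than EV with vehicle and 2 higher in siWDR77 than siCtrl with vehicle. The block also called CPT1A with R1881 in EV and siCtrl (edgeR adjusted p = 0.0295 and 0.00338), HADHA and ECI1 in P3 (0.0331 and 0.0159), and SCD between siRNA arms with R1881 (0.0361). Fitting only the groups compared gave 10 higher in P3 than EV with vehicle and 1 lower in siWDR77 than siCtrl with R1881, and fitting all 24 libraries gave 3, and 1. The latter fit and DESeq2 each called 2 higher in siWDR77 than siCtrl with vehicle. With no filter on low counts it was 3, and 1 gene had a higher response in siWDR77. Asking in addition for at least 1.5-fold left 5 lower in EV, 7 lower in each siRNA arm, 11 higher and 0 lower in P3, 0 in either direction between P3 and EV with vehicle, 0 higher and 12 lower with R1881, 2 positive and 10 negative differences, and 0 higher between siRNA arms under either treatment.

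Leaving out 1 library at a time gave 3 to 5 genes lower with R1881 in P3 (3 without P3 vehicle library S19 or R1881 library S20) and 3 to 9 lower and 4 to 7 higher in P3 than EV with vehicle (5 lower without EV vehicle library S1 or S15). It gave 1 to 3 higher in siWDR77 than siCtrl with vehicle, 2 to 5 with R1881, and 0 to 1 called differences in response between them. With R1881, calls between siRNA arms were lost for ME1 without siCtrl library S22 or S36 or siWDR77 library S10, for HADHB without siCtrl library S22, S36 or S8 or siWDR77 library S10 or S24, and for ACSL1 without siCtrl library S22 or S8 or siWDR77 library S10, S24 or S38. The cause of these shifts was not tested. Depth limits ELOVL2, ACSL5, PLIN2, LIPE and ACADL, which had few counts.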
